A study of Homo sapiens with 9 samples.

Results

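The genes described here encode the aminoacyl-tRNA synthetases of the cytosol and of the mitochondrion, with AIMP1 and AIMP2, which hold the multi-synthetase complex together, and XPOT, which carries tRNA out of the nucleus. Each gene was taken from the deposited table where a transcript cluster (the set of array probes summarised as 1 gene) was annotated with its symbol and no other. That gave 32 of 38 listed genes: 18 of 19 cytosolic synthetases, 12 of 16 mitochondrial synthetases and 2 of 3 accessory genes, among 22011 clusters in all. FARSB, EARS2, SARS2, VARS2 and YARS2 had only clusters annotated with a second gene as well, and AIMP2 was not matched, so these 6 are not analysed here.

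The cells were GM12878, a lymphoblastoid B-cell line made by transforming the B cells of 1 donor with Epstein-Barr virus. Each culture started from 900000 cells per ml, in a medium that held 15% serum. There were 3 untreated cultures at 0 h, 3 exposed for 8 h to 10 µM D,L-sulforaphane, an isothiocyanate that activates the stress factor NRF2, and 3 exposed for 24 h, each on 1 Affymetrix Human Exon 1.0 ST array. The treatment protocol names a 0.1% DMSO vehicle, but vehicle arrays were not analysed here, so time in culture and sulforaphane cannot be told apart, and the labels do not say whether the cultures were started separately.

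A synthetase joins 1 amino acid to its tRNA, and the loaded tRNA then goes to the ribosome. The cytosol and the mitochondrion mostly use separate nuclear genes for the same amino acid, except that GARS1 and KARS1 serve both compartments. Enzymes of class I and class II differ in the fold of their catalytic domain. Several of the cytosolic enzymes are bound into a multi-synthetase complex, and EPRS1 carries the glutamate and proline enzymes in 1 chain. When amino acids are short or proteins misfold, kinases of the factor eIF2 raise translation of ATF4, a transcription factor that switches on many cytosolic synthetase genes through a composite element called CARE.

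The CARE letters, searched as TGATGNAA on both strands, were present in the promoter window of 7 of the 16 cytosolic synthetases that had one, of 1 of 14 mitochondrial synthetases and of 0 of 3 accessory genes. The windows run from 250 bases before to 50 bases after each start in RefSeq (GRCh38.p14), and 33 of 38 listed genes had at least 1. Over all genes with a window the share was 4.46%. The 7 stretches below are shown because 5 of these genes were lower at 24 h than at 8 h, as described further on. Each is 60 bases on the gene's own strand, and capitals mark the CARE match. In 6 of the 7 the match reads TGATGCAA on one strand, and in GARS1 it reads TGATGAAA. A match is a description of the letters and not evidence of ATF4 binding.
AARS1, chr16:70289660-70289719, minus strand: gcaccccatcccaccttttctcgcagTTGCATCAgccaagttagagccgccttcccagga
CARS1, chr11:3057392-3057451, minus strand: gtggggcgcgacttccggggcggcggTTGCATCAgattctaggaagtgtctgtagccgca
GARS1, chr7:30594819-30594878, plus strand: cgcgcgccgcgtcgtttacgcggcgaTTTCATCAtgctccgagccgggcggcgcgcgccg
IARS1, chr9:92293677-92293736, minus strand: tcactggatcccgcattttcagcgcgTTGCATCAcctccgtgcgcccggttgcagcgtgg
MARS1, chr12:57488038-57488097, plus strand: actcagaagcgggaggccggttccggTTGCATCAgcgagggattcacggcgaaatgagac
NARS1, chr18:57621789-57621848, minus strand: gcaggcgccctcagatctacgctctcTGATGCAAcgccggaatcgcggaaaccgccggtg
TARS1, chr5:33440941-33441000, plus strand: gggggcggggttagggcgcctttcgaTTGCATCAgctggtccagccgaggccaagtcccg

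In 6 of the 7 genes the match begins within 50 bases of the start, and in AARS1 it lies further upstream, inside the window. All 7 belong to the 13 genes listed as known ATF4 targets. The listed targets without the letters in their window were EPRS1, SARS1, WARS1 and XPOT, and LARS1 and YARS1 had no window. The core of the NRF2 element, searched as TGACNNNGC, was in the windows of 9 of 33 listed genes against 16.1% of all genes, and no match of one motif overlapped a match of another in these windows.

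Values are log2 RMA signals as deposited, so a difference of 1 is a 2-fold change. Differences are given with standard errors from limma, over 3 arrays per group, and a gene is said to rise or fall where its p-value, adjusted across the 22011 clusters (Benjamini-Hochberg), was below 0.05. In a bulk culture, fewer cells of a kind and less RNA per cell cannot be told apart. Mean signals per array lay between 7.97 and 8.14. All 9 measured B-cell markers, among them MS4A1, CD79A and CD22, lay above the median cluster, and 2 of 8 T-cell, 0 of 4 myeloid and 1 of 6 fibroblast markers did. All 32 genes here also lay above the median cluster.

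The array of untreated replicate 2 was unlike the rest, and most of the synthetase genes were low on it. It was the lowest of the 9 arrays for 21 of the 32 genes and the highest for 0, whereas it was lowest for 30.5% of all clusters and for 44.5% of clusters above the median signal. Relative to the mean of the other untreated arrays it was lower in all 32 genes, by 0.36 at the median, from 0.019 in WARS1 to 1.13 in FARS2. The corresponding median over clusters above the median signal was -0.15. At the other end, 24 h replicate 1 was the highest array for 14 of the 32. The median standard deviation of the 32 genes was 0.23 in untreated cells at 0 h, 0.077 at 8 h and 0.097 at 24 h. The cause of the low array was not tested. Many results of the 32 genes are given with and without it, and those of other pathway genes with all arrays only.

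**Figure D1:**
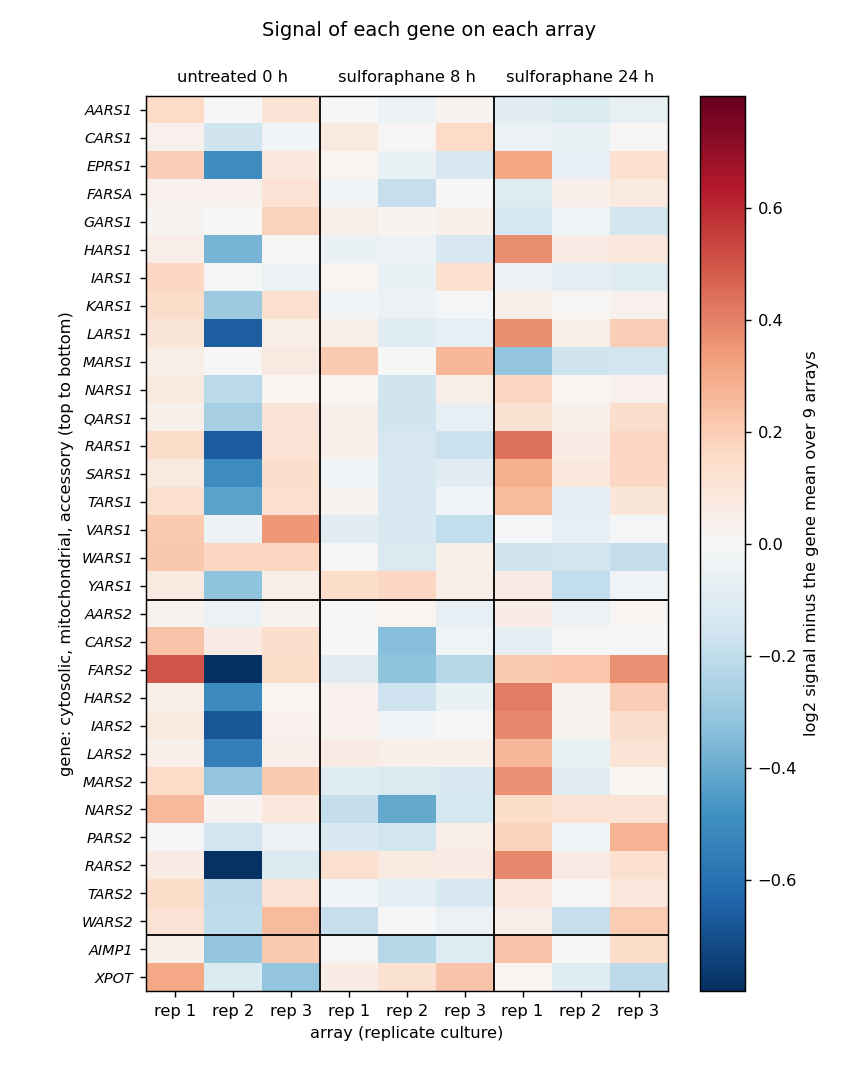
Log2 signal of each of the 32 genes (rows: cytosolic, mitochondrial, accessory) on each of the 9 arrays (columns: untreated 0 h, sulforaphane 8 h, sulforaphane 24 h), with the gene's mean over 9 arrays subtracted. Untreated replicate 2 is blue in most rows and is the lowest array for 21 of 32 genes, whereas WARS1 is red on all 3 untreated arrays and blue on all 3 arrays of 24 h.

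WARS1 was the 1 gene of the 32 that changed by this test, and it fell by 24 h. It encodes the cytosolic tryptophan enzyme, known to be induced by interferon. Its signal (cluster 3579546) was 12.07, 12.03 and 12.03 in untreated cells, 11.87, 11.75 and 11.90 at 8 h, and 11.70, 11.71 and 11.67 at 24 h. The 3 groups did not overlap, and untreated replicate 2 lay level with the other untreated arrays. At 24 h WARS1 was lower by 0.35 ± 0.059, 0.783 times the untreated signal (limma adjusted p = 0.035). At 8 h the difference was -0.21 ± 0.059 (adjusted p = 0.16), and between 24 h and 8 h it was -0.15 ± 0.059 (adjusted p = 0.45). The call at 24 h sat near the threshold: the difference stayed between -0.42 and -0.34 under all 19 alternatives. Its adjusted p passed in 3 of the 9 fits that left out 1 array, those without untreated replicate 1, untreated replicate 2 or 8 h replicate 2, and was 0.054 with the replicate number as a block and 0.097 in a fit of the 2 groups alone.

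WARS1 has 2 promoter windows in RefSeq. The upstream one held a match to the core of the NRF2 element, with the letters TGACGGCGC. WARS1 is thus among the 9 of 33 listed genes with that core, against 16.1% of all genes. The downstream one held 1 match to the letters GAAA, any 2 bases, GAAA (searched on both strands), part of the interferon-stimulated response element, a search added after the values were seen. Among the 33 listed genes with a window, WARS1 and EARS2 had this match, against 4.38% of all genes. The downstream window is shown because WARS1 is the gene that fell, with the GAAA match in capitals. The upstream window is not shown. Both matches describe letters and are not evidence of binding.
WARS1, chr14:100375298-100375597, minus strand: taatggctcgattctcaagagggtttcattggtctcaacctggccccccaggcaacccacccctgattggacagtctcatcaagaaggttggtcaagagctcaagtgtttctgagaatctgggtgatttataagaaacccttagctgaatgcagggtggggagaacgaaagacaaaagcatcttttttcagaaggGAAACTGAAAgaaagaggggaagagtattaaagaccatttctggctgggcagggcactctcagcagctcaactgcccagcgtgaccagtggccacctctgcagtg

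The GAAA match starts 55 bases before the downstream start site. The array's cluster sums the probes of the gene and does not separate transcripts from the 2 starts.

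The first question was which of these genes had changed by 8 h of exposure. None of the 32 was called with limma, against 0.595% of all clusters. At an unadjusted p under 0.05, 0 were higher and 4 were lower (NARS2, WARS1, VARS1 and CARS2), and over all clusters 15.1% passed it, 6.57% with a lower signal. The median difference was 0.012 for the 18 cytosolic synthetases and -0.055 for the 12 mitochondrial ones, and -0.012 for all clusters. In 5 genes (the same 4 and FARSA) all arrays of 8 h lay below all untreated arrays, against 8.55% of clusters in that direction, and in 0 genes they lay above, against 9.06%.

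NARS2, the mitochondrial asparagine enzyme, had signals of 10.75, 10.51 and 10.57 in untreated cells, 10.30, 10.08 and 10.35 at 8 h, and 10.64, 10.60 and 10.60 at 24 h. The 8 h arrays lay below both other groups, which overlapped each other. The difference was -0.37 ± 0.091 at 8 h against 0 h (adjusted p = 0.12) and 0.37 ± 0.091 at 24 h against 8 h (adjusted p = 0.20), and 0.0012 ± 0.091 at 24 h against 0 h (adjusted p = 0.995).

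VARS1, the cytosolic valine enzyme, had signals of 10.70, 10.46 and 10.84 in untreated cells, 10.40, 10.37 and 10.30 at 8 h, and 10.48, 10.43 and 10.48 at 24 h. All 8 h arrays were below all untreated arrays, and the 24 h arrays overlapped them through untreated replicate 2. The difference at 8 h was -0.31 ± 0.096 (adjusted p = 0.19). Without untreated replicate 2 it was -0.41 ± 0.063 and passed (adjusted p = 0.036).

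CARS2, the mitochondrial cysteine enzyme, had signals of 10.36, 10.20 and 10.27 in untreated cells, 10.14, 9.79 and 10.10 at 8 h, and 10.06, 10.14 and 10.14 at 24 h. Both treated groups lay below the untreated one. The difference was -0.27 ± 0.098 at 8 h (adjusted p = 0.26) and -0.17 ± 0.098 at 24 h (adjusted p = 0.345).

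The largest positive difference at 8 h was in RARS2, the mitochondrial arginine enzyme, and it rested on 1 array. RARS2 had signals of 9.65, 8.80 and 9.47 in untreated cells, 9.71, 9.66 and 9.65 at 8 h, and 9.97, 9.65 and 9.71 at 24 h. The low value was untreated replicate 2, and the 8 h and 24 h arrays lay level with or above the other untreated arrays. The difference was 0.37 ± 0.20 at 8 h and 0.47 ± 0.20 at 24 h, and without untreated replicate 2 it was 0.11 ± 0.11 and 0.22 ± 0.11. FARS2, the mitochondrial phenylalanine enzyme, turned on the same array: it had 9.95, 8.65 and 9.60 in untreated cells, 9.36, 9.13 and 9.22 at 8 h, and 9.65, 9.67 and 9.81 at 24 h. Its 8 h difference was -0.16 ± 0.28 with that array and -0.54 ± 0.12 (adjusted p = 0.096) without it.

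**Figure D2:**
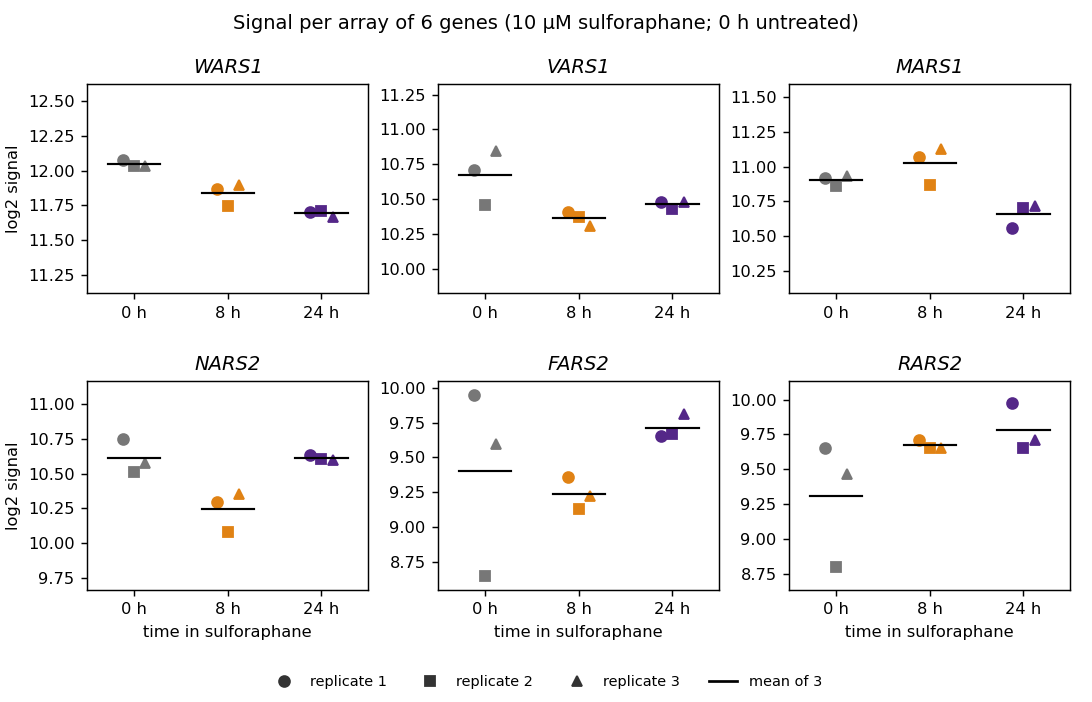
Log2 signal per array (points, with a shape for each replicate; lines, means of 3) for WARS1, VARS1, MARS1, NARS2, FARS2 and RARS2 at 0, 8 and 24 h; every vertical axis spans the same range. WARS1 is highest at 0 h and lowest at 24 h, NARS2 is low at 8 h alone, MARS1 is low at 24 h alone, and the square at 0 h in FARS2 and RARS2 is untreated replicate 2.

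For the group as a whole the sign at 8 h depended on untreated replicate 2. With all arrays, 15 genes were higher, against 47.0% of clusters, and 17 lower. Without that array 6 were higher and 26 lower, against 9834 of 22011 clusters higher and 12175 lower. The medians were then -0.13 for the cytosolic and -0.15 for the mitochondrial synthetases, against -0.016 for all clusters. The count of calls then was 1 of 32 (VARS1), against 1.32% of clusters. At an unadjusted p under 0.05, 9 genes were lower and 0 higher without that array, 28.1% of the 32, and 1818 of the 22011 clusters were lower and 1265 higher. They were the same 4 as with all arrays, and AARS1, KARS1, SARS1, FARS2 and TARS2.

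The next question was what had changed by 24 h. WARS1 fell, 0 genes rose and 31 did not pass. Of all clusters 1.62% were called, 0.791% that fell and 0.831% that rose. At an unadjusted p under 0.05, RARS2 was higher and 4 genes were lower, against 13.9% of clusters higher and 6.45% lower. Beside WARS1 these were AARS1, the alanine enzyme (-0.18 ± 0.059, adjusted p = 0.17), GARS1, the glycine enzyme (-0.18 ± 0.068, adjusted p = 0.21), and MARS1, the methionine enzyme of the complex (-0.25 ± 0.083, adjusted p = 0.17). In these 4 genes and CARS2 every 24 h array lay below every untreated array, against 8.75% of clusters in that direction. HARS1, the histidine enzyme, was the 1 gene above without overlap (0.28 ± 0.13, adjusted p = 0.27), against 15.6% of clusters. Without untreated replicate 2 its difference was 0.14 ± 0.098.

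MARS1 had signals of 10.92, 10.86 and 10.94 in untreated cells, 11.07, 10.87 and 11.13 at 8 h, and 10.55, 10.70 and 10.71 at 24 h. Its 24 h arrays were below all others, and untreated replicate 2 was close to its group. AARS1 had 10.89, 10.74 and 10.84 in untreated cells, 10.74, 10.70 and 10.76 at 8 h, and 10.64, 10.62 and 10.68 at 24 h. In AARS1 too, the 24 h arrays were below both other groups.

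By class, 11 of 18 cytosolic synthetases were higher at 24 h (median 0.028) and 10 of 12 mitochondrial synthetases were higher (median 0.14), and of all clusters 53.1% were higher (median 0.017). Clusters above the median signal had a median of 0.091. Without untreated replicate 2 those counts became 6 of 18 and 5 of 12, with medians of -0.057 and -0.034. In that fit 11553 of 22011 clusters were higher, with a median of 0.0086. The higher mitochondrial median against 0 h thus came with that 1 array. Mitochondrial genes with the largest differences, such as IARS2 for isoleucine (0.37 ± 0.19), HARS2 for histidine (0.36 ± 0.16), FARS2 (0.31 ± 0.28) and LARS2 for leucine (0.26 ± 0.16), were also those where untreated replicate 2 was far below the other untreated arrays, by 0.73, 0.54, 1.13 and 0.59. Without that array their differences were 0.13 ± 0.10 for IARS2, 0.18 ± 0.11 for HARS2, -0.063 ± 0.12 for FARS2 and 0.066 ± 0.092 for LARS2. PARS2 for proline (0.21 ± 0.097), MARS2 for methionine (0.080 ± 0.16), TARS2 for threonine (0.041 ± 0.097), AARS2 for alanine (0.0065 ± 0.057) and WARS2 for tryptophan (-0.032 ± 0.14) were nearer to 0. None of these passed the test.

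**Figure D3:**
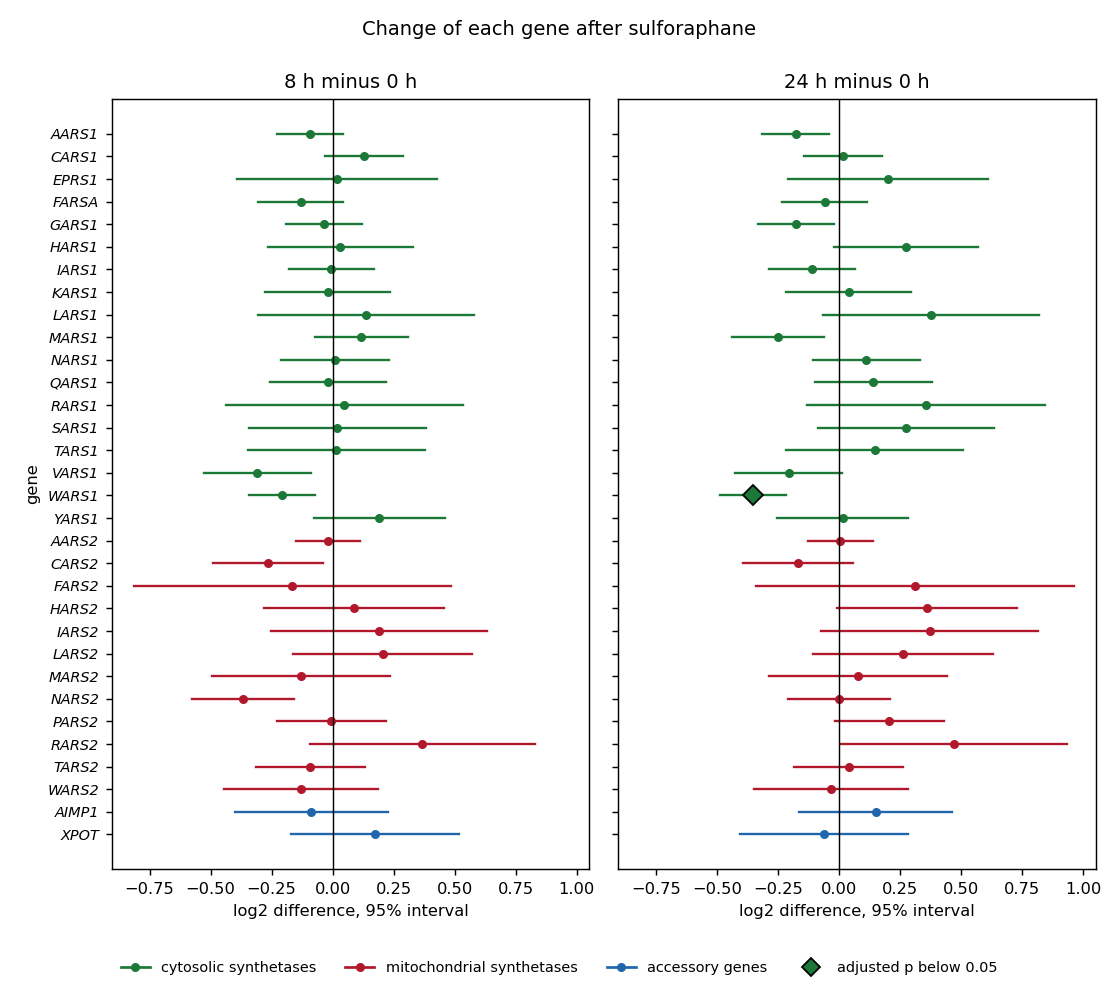
Log2 difference of each gene at 8 h and at 24 h against 0 h (points) with the 95% interval of limma, not adjusted for multiple tests (lines). WARS1 at 24 h is the 1 diamond (adjusted p = 0.035), and the widest intervals belong to genes such as FARS2, RARS1 and RARS2 in which untreated replicate 2 was far below the others.

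The precision bounds what these arrays could miss. The 95% interval reached beyond 0.5 in either direction for 9 of the 32 genes at 8 h and 11 at 24 h, and beyond 1 for 0 at both times. AARS2 was the most tightly bounded mitochondrial gene, from -0.12 to 0.14 at 24 h. CARS1, for cysteine, lay between -0.14 and 0.18 at 24 h (difference 0.017, and -0.037 without untreated replicate 2), and IARS1 between -0.28 and 0.066 (difference -0.11).

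Within the multi-synthetase complex, 8 of the 9 listed genes were measured and none was called at either time, with medians of 0.0063 at 8 h and 0.15 at 24 h. Without untreated replicate 2 the medians of these 8 genes were -0.15 at 8 h and -0.0048 at 24 h. At 24 h the arginine enzyme RARS1 (0.36 ± 0.21), the leucine enzyme LARS1 (0.38 ± 0.19), EPRS1 (0.20 ± 0.18), the glutamine enzyme QARS1 (0.14 ± 0.10), the scaffold AIMP1 (0.15 ± 0.14) and the lysine enzyme KARS1 (0.040 ± 0.11) were on the positive side, and MARS1 and IARS1 on the negative. RARS1 had signals of 10.50, 9.69 and 10.46 in untreated cells, 10.39, 10.22 and 10.18 at 8 h, and 10.79, 10.41 and 10.52 at 24 h. LARS1 had 9.93, 9.17 and 9.89 in untreated cells, 9.89, 9.74 and 9.77 at 8 h, and 10.21, 9.89 and 10.03 at 24 h. In both the low array was untreated replicate 2, and without it their 24 h differences were 0.093 ± 0.12 and 0.13 ± 0.098. Without it QARS1 was at 0.028 ± 0.073 and AIMP1 at 0.0030 ± 0.10, and EPRS1 (-0.013 ± 0.11) and KARS1 (-0.10 ± 0.048) turned to the negative side.

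Among the free cytosolic enzymes at 24 h, SARS1 for serine (0.28 ± 0.16), TARS1 for threonine (0.15 ± 0.16), NARS1 for asparagine (0.11 ± 0.096) and YARS1 for tyrosine (0.015 ± 0.12) were on the positive side, and FARSA, the alpha chain of the phenylalanine enzyme (-0.059 ± 0.076), and VARS1 (-0.21 ± 0.096) on the negative. Without untreated replicate 2, SARS1 was at 0.072 ± 0.073 and NARS1 at 0.027 ± 0.083, TARS1 (-0.040 ± 0.099) and YARS1 (-0.11 ± 0.084) turned negative, and VARS1 was at -0.31 ± 0.063. YARS1 had the largest positive cytosolic difference at 8 h (0.19 ± 0.12, adjusted p = 0.46). It had signals of 10.78, 10.39 and 10.76 in untreated cells, 10.86, 10.88 and 10.76 at 8 h, and 10.77, 10.52 and 10.68 at 24 h, so the groups overlapped. Without untreated replicate 2 its 8 h difference was 0.065 ± 0.084, smaller than those of MARS1 (0.096 ± 0.091) and CARS1 (0.075 ± 0.061). By catalytic class the medians at 24 h were 0.048 for the 16 measured enzymes of class I and 0.077 for the 14 of class II, and without that array -0.061 and -0.045.

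AIMP1 had signals of 9.73, 9.37 and 9.90 in untreated cells, 9.70, 9.46 and 9.59 at 8 h, and 9.92, 9.70 and 9.84 at 24 h. XPOT had 10.41, 9.99 and 9.79 in untreated cells, 10.16, 10.22 and 10.33 at 8 h, and 10.11, 10.00 and 9.89 at 24 h. The untreated arrays of XPOT spanned both treated groups, and its difference was 0.17 ± 0.15 at 8 h and -0.061 ± 0.15 at 24 h.

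The comparison of 24 h with 8 h does not use the level of the untreated arrays, which enter only through the shared spread. None of the 32 genes was called with limma, against 0.327% of clusters. At an unadjusted p under 0.05, NARS2 was higher, and MARS1 (-0.37 ± 0.083, adjusted p = 0.16) and WARS1 were lower, against 6.91% of clusters higher, 3.45% lower and 10.4% in either direction. That count depended on untreated replicate 2, through the spread: without it 10 genes were higher and 2 lower at the same threshold, 37.5% of the 32 against 16.4% of clusters, and 0 were called after adjustment. The 10 were HARS1, LARS1, QARS1, RARS1, SARS1, FARS2, HARS2, NARS2, TARS2 and AIMP1, and the 2 were MARS1 and WARS1. In 15 genes the groups did not overlap, against 21.6% of clusters: 10 genes were higher, against 15.2% of clusters, and 5 were lower (AARS1, GARS1, MARS1, WARS1 and XPOT), against 6.40%.

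Both sets had medians above 0 in this comparison, and the difference between the sets was not tested. Of the 18 cytosolic synthetases 11 were higher at 24 h than at 8 h, with a median of 0.087 and a range from -0.37 to 0.31, and all 12 mitochondrial ones were higher, with a median of 0.16 and a range from 0.025 in AARS2 to 0.48 in FARS2. Over all clusters 57.9% were higher, with a median of 0.024, and over clusters above the median signal 64.1%, with a median of 0.054. The mitochondrial median stayed between 0.10 and 0.23 when each of the 6 treated arrays was left out in turn. In these fits 11 or 12 of the 12 genes stayed on the positive side. All 12 genes were also lower on untreated replicate 2 than on the other untreated arrays (median -0.44, against -0.33 for the cytosolic set). Their median deviation from the gene means was 0.19 on 24 h replicate 1, 0.0055 on 24 h replicate 2 and 0.12 on 24 h replicate 3. Whether the late difference is linked to these arrays was not tested. Of 12 pairs of enzymes for the same amino acid, the cytosolic member had the larger difference in 2 (LARS1 and RARS1) and the mitochondrial member in 10, with a median cytosolic minus mitochondrial difference of -0.16. Examples are MARS1 at -0.37 beside MARS2 at 0.21, IARS1 at -0.10 beside IARS2 at 0.18, FARSA at 0.072 beside FARS2 at 0.48, and WARS1 at -0.15 beside WARS2 at 0.097. Some of the 10 were near ties: TARS1 and TARS2 were both at 0.13, EPRS1 was at 0.18 beside PARS2 at 0.21, and HARS1 at 0.24 beside HARS2 at 0.27. At 8 h against 0 h the pairs divided 6 and 6, and at 24 h against 0 h the cytosolic member was larger in 4 and the mitochondrial member in 8.

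The cytosolic genes that were lower at 24 h than at 8 h were all on the list of known ATF4 targets. Of the 13 listed targets 8 were lower (AARS1, CARS1, GARS1, IARS1, MARS1, WARS1, YARS1 and XPOT) and 5 higher (EPRS1, LARS1, NARS1, SARS1 and TARS1), with a median of -0.10. Of the 6 measured cytosolic synthetases off the list 0 were lower, with a median of 0.13: FARSA (0.072), HARS1 (0.24), KARS1 (0.060), QARS1 (0.16), RARS1 (0.31) and VARS1 (0.10). By promoter letters, 5 of the 7 genes with CARE shown above were lower (median -0.10), and 1 of 8 cytosolic synthetases with a window but without the letters, WARS1, was lower (median 0.17). These counts were the same without each of the 6 treated arrays in turn, while the median of the 7 lay between -0.15 and -0.070 and that of the 8 between 0.14 and 0.24. No gene in either set passed the test, so the division describes signs on these 6 arrays. TARS1 (0.13 ± 0.16) and NARS1 (0.10 ± 0.096) carry the letters and were on the other side. Of the 8 without the letters, 5 were off the target list. Within the target list, 5 of the 7 genes with the letters were lower. Of the 4 listed targets with a window but without the letters, 2 were lower (WARS1 and XPOT, median of the 4 0.019). The signs also went with the level of untreated replicate 2 relative to the mean of the other untreated arrays. That level lay between -0.16 (CARS1) and -0.019 (WARS1) in AARS1, CARS1, GARS1, IARS1, MARS1 and WARS1, all lower at 24 h. In the cytosolic genes that were higher it lay between -0.79 (RARS1) and -0.26 (NARS1), except in FARSA (-0.042). YARS1 was lower at 24 h, with -0.38. These groupings were not tested against each other. The wider ATF4 and eIF2 kinase list is described below.

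**Figure D4:**
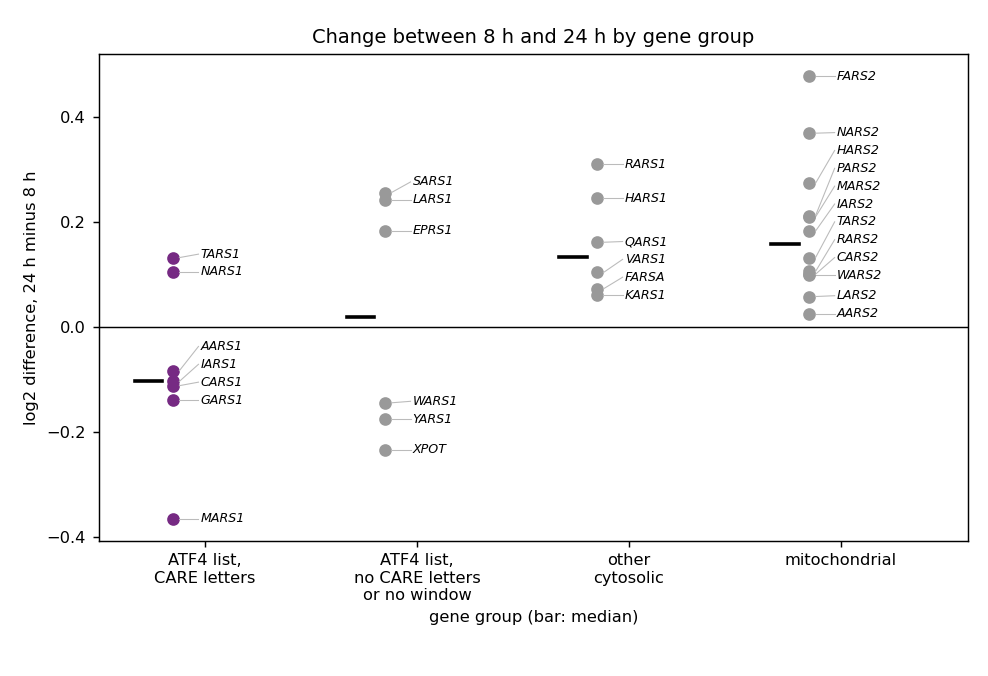
Log2 difference at 24 h minus 8 h for 31 genes (points) in 4 groups, with the median of each group as a bar: ATF4 targets with the CARE letters in a promoter window, ATF4 targets without them or without a window, other cytosolic synthetases, and mitochondrial synthetases. The first group has 5 of 7 genes below 0, the third 0 of 6 and the fourth 0 of 12. In the second group WARS1, YARS1 and XPOT lie below 0 and EPRS1, LARS1 and SARS1 above. AIMP1 is not plotted.

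Other genes of the pathways that load and use tRNA showed few calls. In the ATF4 and eIF2 kinase list, 37 of 40 genes were measured. None was called at 8 h, SLC7A5, a transporter of large neutral amino acids, fell at 24 h against 0 h (-0.39 ± 0.073, adjusted p = 0.045), and PHGDH, the first enzyme of serine synthesis, fell at 24 h against 8 h (-0.50 ± 0.072, adjusted p = 0.043). From 8 h to 24 h, 21 of the 37 were higher and 16 lower, with a median of 0.032, against 0.024 for all clusters. At an unadjusted p under 0.05, 1 was higher and 6 lower in that comparison, against 6.91% of clusters higher and 3.45% lower. ATF4 itself had a mean of 10.83 ± 0.092 (SD, n = 3) in untreated cells, 10.76 ± 0.059 at 8 h and 10.86 ± 0.15 at 24 h, differences of -0.067 ± 0.088 and 0.033 ± 0.088 (SE) against 0 h. Its regulation lies largely in translation, which arrays do not measure. Of its targets, ASNS, which makes asparagine, differed by 0.090 ± 0.11 at 8 h and 0.065 ± 0.11 at 24 h, and the stress gene CHAC1 by 0.0040 ± 0.094 and -0.021 ± 0.094. DDIT3, a factor of the stress response, differed by 0.030 ± 0.076 and 0.20 ± 0.076 (adjusted p = 0.21 at 24 h), and TRIB3, a feedback inhibitor of ATF4, by -0.13 ± 0.061 and -0.15 ± 0.061 (adjusted p = 0.23 at 24 h). At 24 h against 8 h, ATF4 differed by 0.10 ± 0.088 and DDIT3 by 0.17 ± 0.076. ASNS (-0.025 ± 0.11), CHAC1 (-0.025 ± 0.094) and TRIB3 (-0.023 ± 0.061) were near 0, and none of these passed. Larger differences in this list, named after their values were seen, did not pass either. SLC7A11, the cystine transporter and also a known NRF2 target, differed by 1.07 ± 0.23 at 8 h (adjusted p = 0.080). Its SD was 0.50 in untreated cells and 0.097 at 8 h. SLC3A2, its partner chain, differed by 0.37 ± 0.081 at 8 h (adjusted p = 0.084). PPP1R15A, which restores eIF2 activity, differed by 0.37 ± 0.076 at 24 h (adjusted p = 0.060).

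In the list of tRNA processing, modification and delivery, 42 of 51 genes were measured and none was called with limma in the 3 comparisons. The smallest p-values were those of TSEN54, a subunit of the tRNA splicing endonuclease (-0.33 ± 0.056 at 8 h against 0 h, adjusted p = 0.055), and METTL1, a tRNA methyltransferase (-0.32 ± 0.080, adjusted p = 0.12). From 8 h to 24 h, 36 of the 42 were higher, with a median of 0.14, against 57.9% of all clusters and a median of 0.024. In the mitochondrial translation list, 73 of 88 were measured and none was called. MRPL17, a protein of the large mitochondrial ribosomal subunit, differed by -0.38 ± 0.077 at 8 h (adjusted p = 0.0715), and MRPL34, of the same subunit, by 0.29 ± 0.062 at 24 h against 8 h (adjusted p = 0.15). From 8 h to 24 h, 60 of those 73 were higher, with a median of 0.12. Of clusters above the median signal 64.1% were higher, with a median of 0.054. Mostly positive differences from 8 h to 24 h were therefore not particular to the mitochondrial synthetases (12 of 12, median 0.16).

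Of the RNA polymerase III list, whose members transcribe the tRNA genes, 19 of 25 were measured and none was called. POLR3B (-0.48 ± 0.11, adjusted p = 0.10) and POLR3K (-0.38 ± 0.094, adjusted p = 0.12), subunits of the polymerase, had the smallest p-values, both at 8 h against 0 h. Of the cytosolic translation factors 31 of 43 were measured and none was called. EIF4H, a cofactor of the helicase that unwinds mRNA leaders, differed by 0.79 ± 0.17 at 24 h against 0 h (adjusted p = 0.067), and EIF2B2, of the exchange factor for eIF2, by -0.26 ± 0.069 at 8 h (adjusted p = 0.14). At an unadjusted p under 0.05, 5 of the 37 genes of the ATF4 and eIF2 kinase list were higher and 5 lower at 24 h against 0 h. The numbers higher and lower were 3 and 2 for tRNA processing and 8 and 5 for mitochondrial translation. For polymerase III they were 3 and 2, and for the translation factors 5 and 0. Over all clusters 20.4% passed in either direction.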

How the data were processed

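Total RNA from 9 GM12878 cultures was measured on Affymetrix Human Exon 1.0 ST arrays. The deposited values are log2 signals, which the authors made with gene-level RMA and sketch-quantile normalization in Affymetrix Expression Console, per the labels and the submitters' processing notes. No version of this software and no genome build was stated by the labels.

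With limma 3.58.1 (R 4.3.3), a linear model was fitted to each of the 22011 clusters, with 1 mean per group over all 9 arrays and no covariate. P-values are two-sided moderated tests, adjusted by Benjamini-Hochberg over all clusters in each of 3 comparisons, with a threshold of 0.05. No value filter was used. The number of arrays limits the precision, and p-values measure the spread between these samples only. Members and gene lists were chosen with earlier results of these data known. Genes were named by a rule: per-array values for called genes, for the largest rise and fall of each class in each comparison and for XPOT, up to 4 called genes of each pathway list or the 2 with the smallest p, and ATF4, ASNS, DDIT3, TRIB3 and CHAC1. AARS1 was given per array after its values were seen. Same-numbered arrays did not deviate together in every pair (correlations from -0.14 to 0.39), so the numbers were not taken as pairs. Between 24 h and untreated arrays the same-numbered correlations were 0.39, 0.38 and 0.056. Other-numbered arrays over all groups lay between -0.42 and 0.13. A shared effect of the replicate number at 24 h against 0 h therefore remains possible. Alternatives were a replicate block, 2 filters on dim clusters, quantile normalization, median centring, trended and robust eBayes, array weights, averaged clusters, a stricter threshold, fits of 2 groups and leaving out each array. Motifs were searched in RefSeq promoter windows. The workflow was tested on simulated data.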

Additional observations from a re-analysis of the deposited data

How the results depend on the processing

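The alternatives were run gene by gene for the 12 members named by rule. The 1 difference that passed the test, WARS1 at 24 h against 0 h, kept its sign. Several that did not pass changed sign. Examples are FARS2 at 24 h against 0 h (-0.063 to 0.59) and RARS1 at 8 h against 0 h (-0.22 to 0.19). The count of members called at 8 h against 0 h (0) became 1 with quantile normalization (NARS2), 18 with array weights and 2 with gene-by-gene array weights, and ranged from 0 to 1 without each array in turn. The count at 24 h against 0 h (1) became 0 with a replicate block, 0 in fits of the 2 groups alone, 0 at an adjusted p under 0.01, 8 with array weights and 4 with gene-by-gene weights, and ranged from 0 to 1 without each array. The count at 24 h against 8 h (0) became 3 under both kinds of array weights (MARS1, NARS2 and WARS1) and stayed 0 without each array. The first kind of weights did not converge, gave untreated replicate 3 a weight of 29.8 and called 9603 of all clusters at 8 h, against 131 without weights. The gene-by-gene kind, added after seeing the data, called 1703. The median of the cytosolic synthetases at 8 h against 0 h (0.012) ranged from -0.13 to 0.086 without each array, and the lowest value came without untreated replicate 2. The mitochondrial median at 24 h against 0 h (0.14) ranged from -0.034 to 0.23, again lowest without that array. The replicate block changed no other call of a member. Over all clusters, calls at 8 h were 9 without untreated replicate 3 and 654 without untreated replicate 1. Wide intervals in FARS2, RARS1 and RARS2 limit what could be seen.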
